A study of Mus musculus with 6 samples.

Results

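Glycosyltransferases that build the glycans of the cell surface were examined in natural killer (NK) cells from mouse spleen. The members are the genes whose symbol starts with St3gal, St6gal, St8sia, Galnt, Mgat, B3gnt, B4galt, B3galt, Gcnt or Fut and goes on with a number, without the Galntl genes. This name rule gave 66 of 27763 gene rows. Poly(A) RNA had been sequenced from 3 libraries labelled cNK and 3 labelled DN NK. Both groups came from the spleen of wild type C57BL/6 mice at 6 weeks of age, and no treatment is named for either. Neither short name is explained in the labels, and the markers behind the 2 groups are not stated, so a gene used for sorting cannot be told from an outcome. Nor is it stated whether the libraries came from separate mice. P-values therefore measure only the spread between these libraries. The series title concerns an immature NK population of the spleen and its maturation under T-bet. Transcripts of the listed NK cell markers were present in all 6 libraries, and 12 of 12 passed the filter. Their summed level was 9508 to 10177 FPKM in cNK and 3541 to 4072 FPKM in DN NK. Of the 12, 11 were lower in DN NK, beside 30.9% of all rows tested. Presence of these transcripts does not show that every cell sequenced was an NK cell, and the purity of the groups was not tested. Sums for other lineages close the Results.

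Surface glycans are assembled in the Golgi, where each enzyme adds a given sugar in a given linkage. Galnt enzymes start O-glycans by placing N-acetylgalactosamine on serine or threonine, and Gcnt enzymes branch them. Mgat enzymes set how many branches an N-glycan carries, and B4galt and B3gnt enzymes extend those branches into chains of galactose and N-acetylglucosamine. St3gal, St6gal and St8sia enzymes cap chains with sialic acid, and Fut enzymes add fucose. In lymphocytes these caps form ligands for selectins and Siglecs, while galectins read the chains. PSGL-1 and CD43 are among the best known carriers of O-glycans.

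Levels are given in FPKM, fragments scaled to transcript length and library size, which allows genes to be compared per length. Fold changes are DN NK over cNK from a quasi-likelihood fit of edgeR to the estimated counts per gene, with Benjamini-Hochberg adjustment over all 11690 rows that reached 1 FPKM in at least 3 of 6 libraries. The threshold was an adjusted p of 0.05. Libraries held 79798234 to 89526647 estimated counts.

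Of the 66 members, 37 passed the filter and 29 did not. Past the threshold were 21 of the 37, with 10 higher and 11 lower in DN NK (10 and 17 with upper quartile factors in place of TMM). Over all rows tested 61.7% passed, 30.8% higher and 30.9% lower, so the share among members (56.8%) was near that background. The median log2 fold change was -0.06 over the tested members and -0.02 over all rows. At least 2-fold changes past the threshold were found for 9 members, 5 higher (St6gal1, B3galt5, Gcnt2, St3gal5 and St3gal3) and 4 lower (Galnt3, B3gnt5, B4galt7 and St3gal6). Of all rows 12.6% did so, 7.9% higher and 4.69% lower. Of these, St6gal1, St3gal5, B3galt5 and Galnt3 passed the filter only through the group in which they were high. In FPKM, the cNK and DN NK libraries were fully apart for 27 of the 37 members and for 70.3% of all rows.

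By class the calls divided as follows, with no test between classes, beside 30.8% higher and 30.9% lower over all rows tested. Among 8 tested sialic acid enzymes 4 rose, 3 fell and 1 did not pass. Among 10 tested O-glycan enzymes 4 fell and none rose, and with upper quartile factors 8 fell. Of 6 tested N-glycan enzymes 2 rose and none fell, and the 11 tested chain extension enzymes gave 4 higher and 4 lower. Fut11, the tested member of the fucose class, did not pass. The antisense RNA Galnt6os, which the name rule also takes but which encodes no enzyme, stood in no class and did not pass (log2 fold change -0.17).

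**Figure D1:**
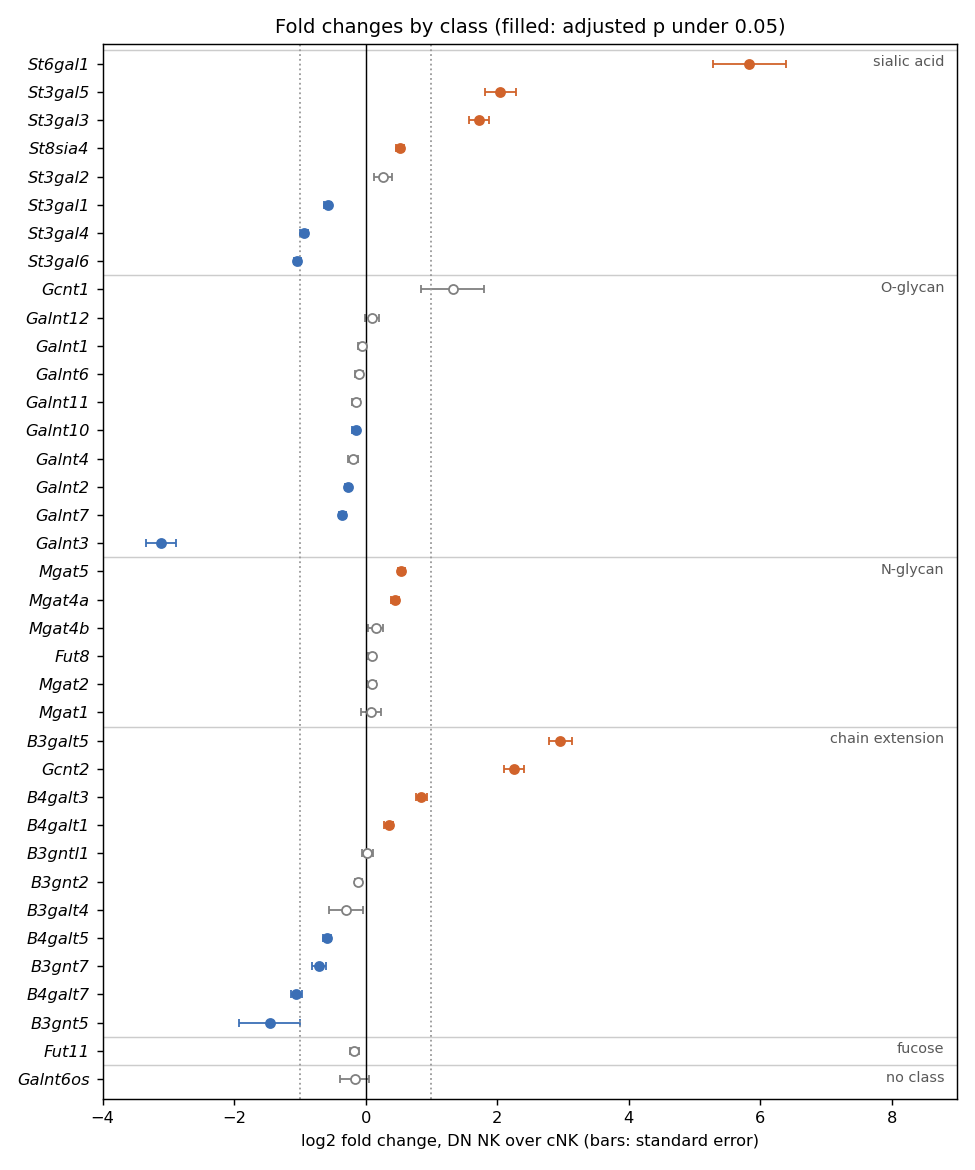
Log2 fold changes of the 37 tested members, DN NK over cNK, by class, with standard errors. Filled points passed an adjusted p of 0.05, and the dotted lines mark 2-fold changes. N-glycan enzymes lie between 0.08 and 0.54, Galnt genes other than Galnt3 between -0.36 and 0.10, and sialic acid enzymes spread from -1.04 to 5.84.

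The 3 abundant St3gal enzymes fell in DN NK, and of the 3 scarce ones 2 rose. St3gal4 and St3gal6, which cap galactose on N-acetyllactosamine chains and take part in making selectin ligands, fell most. St3gal4 stood at 30.9, 30.6 and 33.0 FPKM in cNK and at 15.1, 15.4 and 16.9 FPKM in DN NK. It fell 1.91-fold (log2 fold change -0.93, SE 0.06, adjusted p = 4.10e-06). St3gal6 was at 22.9, 25.2 and 24.2 FPKM in cNK against 10.6, 11.5 and 11.7 FPKM in DN NK, which is 2.05-fold lower (log2 fold change -1.04, SE 0.05, adjusted p = 1.50e-06). For both genes every DN NK library lay below every cNK library. An opposite-strand neighbour shares 14.1% of the exonic bases of St3gal4 (4930581F22Rik, at 3.89 and 2.58 FPKM) and 26.0% of those of St3gal6 (Dcbld2, at 0.167 and 0.215 FPKM), and the library kit does not mark strand. St3gal1, which caps the core disaccharide of O-glycans, fell less, from 27.2 ± 0.900 to 17.5 ± 1.14 FPKM (SD, n = 3; log2 fold change -0.58).

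St3gal3, another enzyme for N-acetyllactosamine chains, went the other way. It was at 1.65, 1.45 and 1.53 FPKM in cNK and at 5.63, 5.08 and 3.96 FPKM in DN NK, a 3.31-fold rise (log2 fold change 1.73, SE 0.15, adjusted p = 2.47e-05). St3gal5, the synthase of the ganglioside GM3, was at 0.480, 0.321 and 0.272 FPKM in cNK and at 1.39, 1.34 and 1.56 FPKM in DN NK, 4.14-fold higher (SE 0.24 on the log2 scale, adjusted p = 0.000108). Both rises left the 2 genes below the abundant members. St3gal2, which also acts on O-glycans and gangliosides, was at 1.90 ± 0.306 and 2.19 ± 0.254 FPKM and did not pass (log2 fold change 0.26, adjusted p = 0.124). It was called higher without cNK replicate 2 (adjusted p = 0.0420).

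These opposite moves changed the makeup of the family. St3gal1, St3gal4 and St3gal6 made up 31.4, 36.4 and 27.8% of the summed St3gal level in cNK and 32.9, 29.8 and 21.2% in DN NK. The share of St3gal3 was 1.78 ± 0.161% in cNK against 9.27 ± 1.95% in the DN NK libraries (SD, n = 3). For St3gal5 it was 0.415 ± 0.138% and 2.70 ± 0.161%. St3gal1 thus kept about its share of a smaller total, which was 84.0, 87.8 and 87.9 FPKM in cNK against 50.8, 53.3 and 54.9 FPKM in DN NK.

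**Figure D2:**
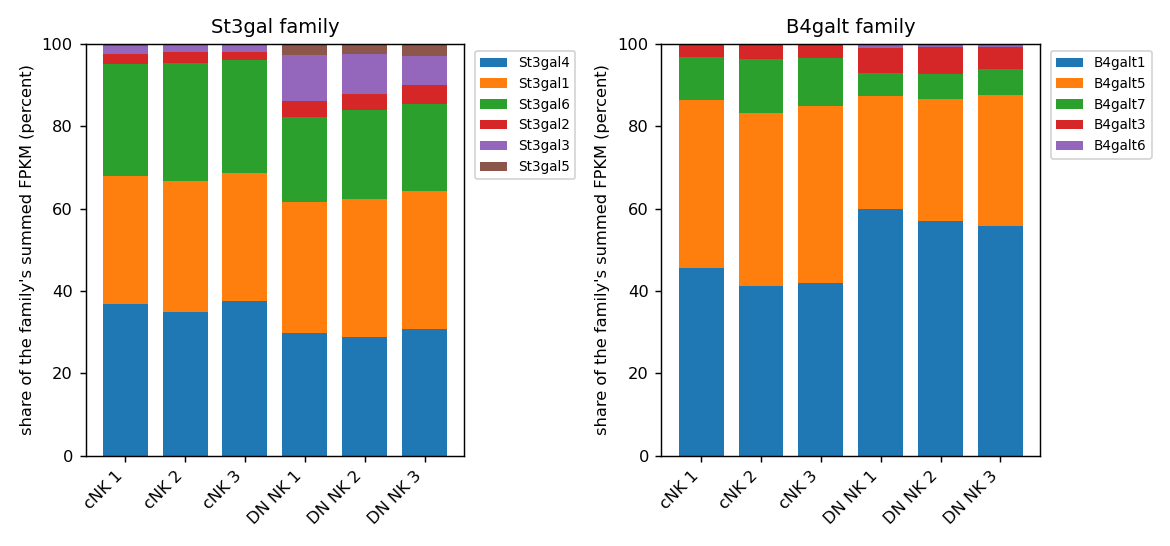
Share of each isoenzyme in the summed FPKM of the St3gal family (left) and the B4galt family (right), in percent, for the 6 libraries. In every DN NK library St3gal3 and St3gal5 take a larger part than in any cNK library, and so do B4galt1 and B4galt3 in their family.

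St6gal1, which adds sialic acid to N-glycans in the linkage that the B cell lectin CD22 binds, had the largest fold change of all tested members. Its level was 0.0596, 0.00775 and 0.0383 FPKM in cNK and 2.49, 1.48 and 2.09 FPKM in DN NK. The rise was 57.2-fold (log2 fold change 5.84, SE 0.55, adjusted p = 0.000271), with only about 14.4 read pairs behind the 3 cNK libraries together. B cells are known for high St6gal1, and B cell markers moved with it. Of 12 B cell markers listed, 9 were tested and 9 were higher in DN NK, 8 of which passed the filter only through DN NK. Over all rows tested 30.8% were higher. The summed level of the 12 was 3.02 to 3.41 FPKM in cNK and 43.5 to 58.3 FPKM in DN NK. None of the 12 was at 0 in all cNK libraries, and Cd79a stood at 13.04, 12.1 and 10.4 FPKM in DN NK. DN NK replicate 1 was highest for both St6gal1 and Cd79a, whereas replicate 2 was lowest for St6gal1 and replicate 3 for Cd79a. The part of B cell RNA in the St6gal1 result was not tested. In bulk RNA, fewer cells of a type and less RNA per cell cannot be told apart.

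**Figure D3:**
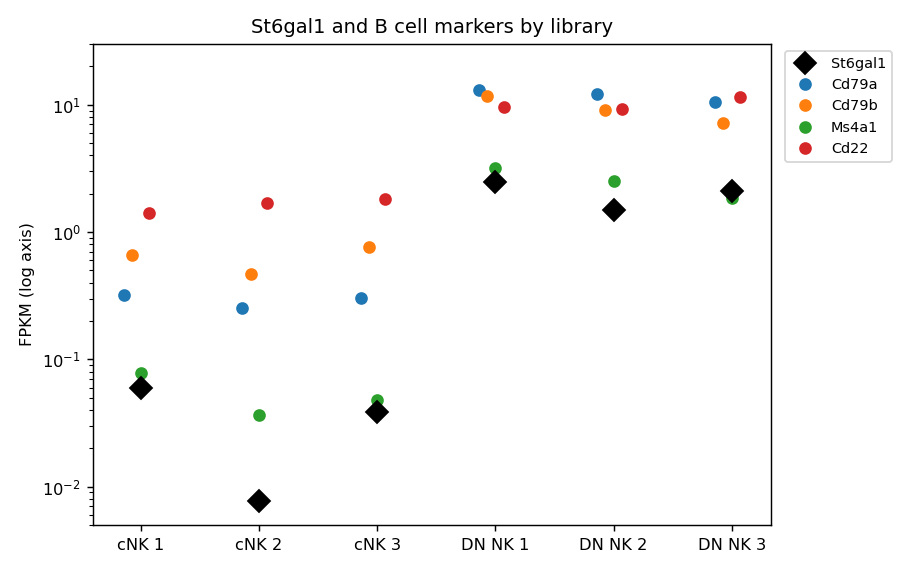
FPKM of St6gal1 (diamonds) and of 4 B cell markers (circles) in each library, on a log axis. St6gal1 lies below 0.06 FPKM in the cNK libraries and between 1.48 and 2.49 FPKM in the DN NK libraries, where all 4 markers are also higher.

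St8sia4, a polysialyltransferase that acts on carriers such as NCAM and some chemokine receptors, was the St8sia gene with a measurable level. It rose 1.44-fold, from 5.88, 6.56 and 6.79 FPKM in cNK to 8.56, 9.24 and 8.70 FPKM in DN NK (adjusted p = 8.12e-05). The other 3 members of the family, St8sia1, St8sia2 and St8sia6, were at 0.0573 FPKM or less in every library.

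The supply of the sialic acid donor and its removal were read from 13 listed genes, of which 12 matched a row and 9 were tested. Of these 1 rose, 3 fell and 5 did not pass, with a median log2 fold change of -0.10. The 44.4% past lay below the 61.7% of all rows tested. Cmah, which converts N-acetylneuraminic acid into its N-glycolyl form, stood at 8.37, 9.49 and 8.06 FPKM in cNK and at 1.07, 0.933 and 1.121 FPKM in DN NK. It was 7.95-fold lower (log2 fold change -2.99, SE 0.09, adjusted p = 1.45e-07), with a wide gap between the groups. Nans, the sialic acid synthase, fell 1.36-fold, and Neu1, the lysosomal sialidase, rose 1.37-fold.

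Upstream sequences are shown for 3 members that changed at least 2-fold and have a single start site in the RefSeq table on GRCm38.p6, lying within 32 bases of the deposited gene start. They serve to compare the sialyltransferases that rose, St3gal3 and St3gal5, with B4galt7, which fell. Each line gives the 250 bases before the start, on the strand of the gene, and capitals mark the Ets motif AGGAAG on either strand.
St3gal3, chr4:118134947-118135196, minus strand: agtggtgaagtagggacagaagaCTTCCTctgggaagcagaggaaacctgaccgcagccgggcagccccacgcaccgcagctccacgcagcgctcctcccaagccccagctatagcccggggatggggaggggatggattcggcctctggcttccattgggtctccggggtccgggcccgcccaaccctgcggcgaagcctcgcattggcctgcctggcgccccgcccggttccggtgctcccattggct
St3gal5, chr6:72097358-72097607, plus strand: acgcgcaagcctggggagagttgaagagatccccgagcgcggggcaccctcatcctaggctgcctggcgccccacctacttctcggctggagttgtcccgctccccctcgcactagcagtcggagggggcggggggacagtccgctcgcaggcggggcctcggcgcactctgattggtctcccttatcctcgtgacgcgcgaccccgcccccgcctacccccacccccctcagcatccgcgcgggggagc
B4galt7, chr13:55599646-55599895, plus strand: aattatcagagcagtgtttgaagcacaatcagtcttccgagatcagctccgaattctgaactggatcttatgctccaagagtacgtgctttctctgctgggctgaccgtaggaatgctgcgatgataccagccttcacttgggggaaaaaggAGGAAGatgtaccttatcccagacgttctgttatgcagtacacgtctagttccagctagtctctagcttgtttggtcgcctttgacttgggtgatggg

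The windows of St3gal3 and St3gal5 held 68.4 and 71.6% G or C and 18 and 25 CG dinucleotides. That of B4galt7 held 48.0% and 8, beside medians of 52.4% and 6 over 32851 windows of the same length. The Ets letters occurred at 227 bases before the start in St3gal3 and at 98 bases in B4galt7, and 29.5% of all windows hold them. The T-box letters GGTGTGA (in 3.33% of all windows) and the Runx letters TGTGGT (in 14.0%), searched on both strands, were not in these 3 windows. Each window thus held at most 1 match, with no overlap, and a match is a description of the sequence only. Among windows not printed, that of Galnt3 held 76.8% G or C and 34 CG dinucleotides, and that of B3gnt5 51.2% and 7. Both members fell. The Galnt3 window runs 201 bases into the deposited gene, and the B3gnt5 window lay near the medians. No relation of G and C content to the direction of change is therefore read from these windows.

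Of the enzymes that start O-glycans only Galnt3 changed more than 1.28-fold among the 9 tested. Of 14 Galnt genes 9 were tested, 4 fell and 5 did not pass, and none rose. This was 44.4% past, beside 61.7% of all rows tested. Galnt2, the most abundant of them, was at 43.1, 46.4 and 44.3 FPKM in cNK and at 35.0, 34.8 and 36.6 FPKM in DN NK, 1.21-fold lower (log2 fold change -0.27, SE 0.04, adjusted p = 0.000570). Most of its exonic bases also belong to the same-strand gene Gm20388 in the annotation, so its reads cannot be assigned with certainty. Galnt7, which prefers peptides that already carry N-acetylgalactosamine, fell 1.28-fold, from 12.3, 13.7 and 13.1 FPKM to 9.42, 9.64 and 10.1 FPKM.

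Galnt3, known for glycosylating the hormone FGF23, was at 2.15, 1.98 and 2.19 FPKM in cNK and at 0.222, 0.311 and 0.162 FPKM in DN NK. It was 8.64-fold lower (log2 fold change -3.11, SE 0.22, adjusted p = 8.17e-06), and 1.37% of the summed Galnt level in cNK came from it. Galnt10 lay at the threshold, with a log2 fold change of -0.15 (adjusted p = 0.0463). Its call was lost without cNK replicate 1 or 2 or without any of the 3 DN NK replicates, in a range of adjusted p from 0.0531 to 0.134. The threshold was missed by Galnt1 (log2 fold change -0.06), Galnt4 (-0.19), Galnt6 (-0.10), Galnt11 (-0.14) and Galnt12 (0.10). Of these Galnt4 was called lower without cNK replicate 1 (adjusted p = 0.0254). In Galnt4, Galnt6 and Galnt11 every DN NK library was nevertheless below every cNK library. Galnt4 shares 8.25% of its exonic bases with Poc1b on the same strand (4.45 and 1.74 FPKM), and Galnt6 shares 11.4% with Galnt6os.

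Gcnt1, which makes the core 2 branch of O-glycans on which selectin ligands are built, was higher in DN NK but did not pass. It stood at 5.52, 1.70 and 4.79 FPKM in cNK and at 9.34, 10.2 and 9.48 FPKM in DN NK (log2 fold change 1.33, SE 0.48, adjusted p = 0.0679). The groups did not overlap, and cNK replicate 2 lay far below the other 2 cNK libraries. Without cNK replicate 2 the log2 fold change was 0.96 (SE 0.09, adjusted p = 8.04e-05), which passes.

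The list for the O-glycan core and its sialylation matched 10 rows, 7 of them tested. Of these 2 rose, 4 fell and 1 did not pass, and without DN NK replicate 2 or 3 the count of those higher was 1. The share past was 85.7%, beside 61.7% of all rows tested. Both genes that rose, and 1 of those that fell, passed the filter only through the group in which they were high, so these counts are a description. C1galt1c1, the chaperone Cosmc that the core 1 galactosyltransferase needs, fell 1.65-fold from 7.16 ± 0.148 to 4.17 ± 0.239 FPKM. The galactosyltransferase gene C1galt1 itself, picked after its value was seen, fell 1.36-fold. St6galnac3, which adds a second sialic acid to sialylated O-glycans and gangliosides, was at 0.143, 0.153 and 0.139 FPKM in cNK and at 1.66, 1.87 and 1.70 FPKM in DN NK. This 12.4-fold rise had a log2 SE of 0.11 and an adjusted p = 1.34e-07. St6galnac6 rose 2.00-fold (adjusted p = 0.0228), from 0.758 ± 0.283 to 1.46 ± 0.190 FPKM.

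N-glycan branching enzymes had a narrow range of log2 fold changes, from 0.08 to 0.54 (with upper quartile factors the lowest, Mgat1, was at -0.0044). Mgat2, which starts the second antenna, was at 18.2, 21.8 and 20.5 FPKM in cNK and at 19.7, 21.6 and 20.4 FPKM in DN NK, with overlapping libraries (log2 fold change 0.09, SE 0.07, adjusted p = 0.282). Mgat1, which opens the complex branch of the pathway, Mgat4b and the core fucosyltransferase Fut8 had values of 0.08, 0.15 and 0.09 and missed the threshold. The 2 that rose were Mgat5 and Mgat4a. Mgat5, whose branch carries polylactosamine read by galectins, rose 1.46-fold from 14.0, 13.2 and 14.5 FPKM to 19.4, 19.1 and 19.8 FPKM (adjusted p = 2.91e-05). Mgat4a, which adds another antenna, rose 1.36-fold from 4.45 ± 0.260 to 5.80 ± 0.166 FPKM. Mgat5 made up 30.3 ± 1.64% of the summed Mgat level in cNK against 36.4 ± 0.933% in the DN NK libraries.

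The steps before branching moved in both directions. All 19 listed genes of oligosaccharide transfer and mannose trimming were tested. Of these 7 rose, 6 fell and 6 did not pass, with a median log2 fold change of 0.01. The 68.4% past was near the 61.7% of all rows tested. Man2a2, a Golgi mannosidase that trims the glycan for the second antenna, was at 3.25, 3.25 and 3.45 FPKM in cNK and at 9.63, 10.1 and 9.98 FPKM in DN NK, 3.12-fold higher (SE 0.05 on the log2 scale, adjusted p = 1.43e-07). Rpn1, a subunit of the oligosaccharyltransferase, rose 2.18-fold. Magt1, an accessory subunit of the same complex, fell 1.88-fold.

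Chain extension enzymes split evenly. B4galt1, the main galactosyltransferase of N-glycan antennae, was at 63.5, 53.4 and 57.1 FPKM in cNK and at 72.6, 71.4 and 68.9 FPKM in DN NK, a 1.28-fold rise (log2 fold change 0.35, SE 0.07, adjusted p = 0.00315). B4galt5, the main synthase of lactosylceramide, was at 57.1, 54.5 and 58.7 FPKM in cNK and at 33.2, 36.9 and 39.3 FPKM in DN NK, 1.49-fold lower (SE 0.06 on the log2 scale, adjusted p = 6.84e-05). In cNK the levels of these 2 genes overlapped, and in DN NK that of B4galt1 was higher in every library. B4galt1 made up 42.9% of the summed B4galt level in cNK and 57.7% in DN NK. B4galt3 rose 1.80-fold from 4.24 ± 0.204 to 7.32 ± 0.662 FPKM, and 14.5% of its exonic bases are shared with Ppox on the opposite strand, at 7.29 and 7.63 FPKM.

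B4galt7, which adds a galactose of the linker that joins glycosaminoglycans to proteoglycans, was at 14.5, 17.0 and 15.9 FPKM in cNK and at 6.59, 7.78 and 7.60 FPKM in DN NK. It fell 2.07-fold (log2 fold change -1.05, SE 0.08, adjusted p = 1.13e-05). Its gene spans chr13:55599896-55610443 on the plus strand, starting at the end of the window printed above. B3galt6, the next enzyme of this linker, lay below the filter at 0.765 ± 0.193 and 0.708 ± 0.0713 FPKM.

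B3gnt genes extend chains with N-acetylglucosamine. B3gnt2, the main polylactosamine synthase, was at 29.3 ± 0.894 and 26.0 ± 0.732 FPKM and did not pass (log2 fold change -0.11, adjusted p = 0.0946). It was called lower without DN NK replicate 1 (adjusted p = 0.0466). Annotation gives 58.6% of its exonic bases also to the same-strand gene Gm28048, at 0.0181 and 0.404 FPKM. B3gnt7 fell 1.64-fold, from 9.19 ± 0.240 to 5.38 ± 0.835 FPKM. B3gnt5, the synthase of lacto-series glycolipids, was at 6.86, 7.58 and 7.80 FPKM in cNK and at 3.99, 1.20 and 2.54 FPKM in DN NK. Its 2.75-fold lower level passed closely (log2 fold change -1.46, SE 0.46, adjusted p = 0.0468), with a wide spread among the DN NK libraries. The call was lost without cNK replicate 1, 2 or 3 or DN NK replicate 3 (adjusted p of 0.105 to 0.129), and with the replicate number as a block (adjusted p = 0.0801) or without a filter (adjusted p = 0.0914).

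Gcnt2 and B3galt5 rose from low levels. Gcnt2, which branches polylactosamine into the I antigen, was at 1.39, 2.09 and 1.49 FPKM in cNK and at 7.42, 7.26 and 8.01 FPKM in DN NK, 4.76-fold higher (log2 fold change 2.25, SE 0.15, adjusted p = 2.05e-05). B3galt5, which makes type 1 chains, was at 0.258, 0.187 and 0.179 FPKM in cNK and at 1.51, 1.70 and 1.52 FPKM in DN NK, 7.79-fold higher (log2 fold change 2.96, SE 0.17, adjusted p = 3.18e-06). In both cases the groups were well apart. B3galt4 (log2 fold change -0.30) and B3gntl1 (0.03, negative with upper quartile factors) missed the threshold.

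**Figure D4:**
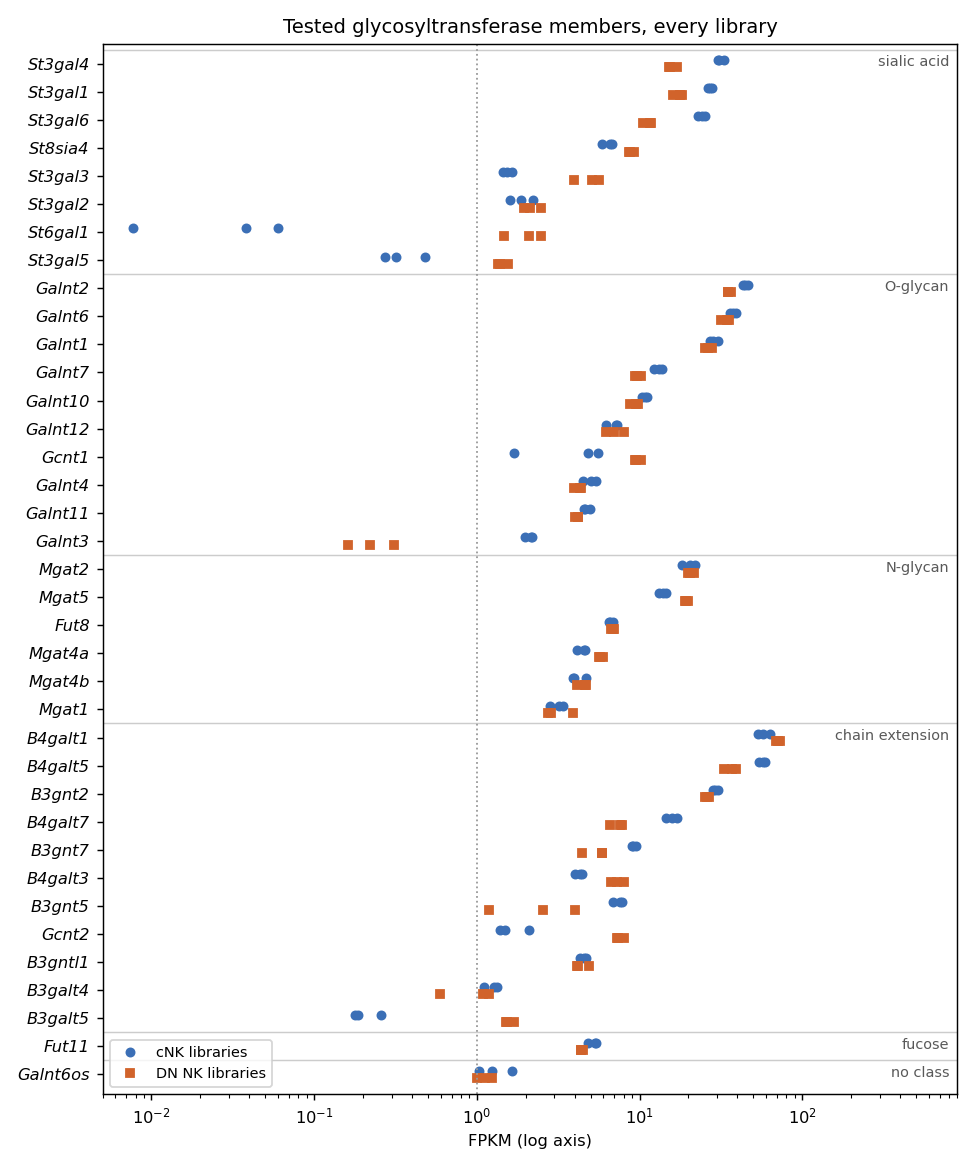
FPKM of the 37 tested members in each of the 6 libraries on a log axis, ordered by level within each class. The dotted line marks 1 FPKM. The members with at least 20 FPKM in either group (St3gal1, St3gal4 and St3gal6, Galnt1, Galnt2 and Galnt6, Mgat2, B4galt1, B4galt5 and B3gnt2) changed at most 2.05-fold, and the wide gaps are at lower levels.

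Of the listed glycolipid genes outside the name rule 8 were tested, of which 3 rose, 2 fell and 3 did not pass. The 62.5% past was near the 61.7% of all rows tested. Hexa, a gene of ganglioside breakdown in the lysosome, rose 2.00-fold from 15.9 ± 0.563 to 30.5 ± 1.44 FPKM. Gm2a, an activator protein of the same breakdown, rose 1.46-fold. B4galnt1, the GM2 synthase that follows St3gal5, was picked after its value was seen. It was abundant in both groups, at 122 ± 3.58 and 149 ± 5.15 FPKM, and rose 1.28-fold.

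Fucosyltransferases were low apart from Fut8 and Fut11. Fut11 was at 4.84, 5.30 and 5.40 FPKM in cNK and at 4.39, 4.51 and 4.34 FPKM in DN NK (log2 fold change -0.17, SE 0.07, adjusted p = 0.0600). The groups did not overlap, and it was called lower without cNK replicate 1 (adjusted p = 0.0433). Fut7, the fucosyltransferase of leukocyte selectin ligands, stayed below the filter at 0.478, 0.734 and 1.02 FPKM in cNK and at 0.0975, 0.0605 and 0.205 FPKM in DN NK. In the fit without a filter it fell by 2.59 on the log2 scale (SE 0.42, adjusted p = 0.000444). Fut4, which also makes such ligands, was at most 0.287 FPKM in any library.

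The list of nucleotide sugar supply matched 16 rows, of which 15 were tested, with 2 higher, 6 lower and 7 not past. The 53.3% past lay below the 61.7% of all rows tested. Uap1, which forms UDP-N-acetylglucosamine, rose 2.44-fold from 6.27 ± 0.641 to 14.7 ± 0.687 FPKM. Slc35d2, a Golgi nucleotide sugar transporter, fell 2.11-fold, and Ugp2, which forms UDP-glucose, fell 1.77-fold.

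Carriers of these glycans and the lectins that read them made up the last list, with 19 rows matched and 12 tested. Of these 9 fell, 2 rose and 1 did not pass, with a median log2 fold change of -0.93. The share past was 91.7%, beside 61.7% of all rows tested. The mucin-type carriers Selplg (PSGL-1) and Spn (CD43), picked after their values were seen, fell 2.36-fold and 2.98-fold, to 61.6 ± 7.51 and 31.6 ± 6.26 FPKM. The 2 that rose were the sialic acid lectins Cd22 and Siglecg. Siglecg, and 1 of the genes that fell, passed the filter only through the group in which they were high. Cd22 rose 6.37-fold, and Siglecg was at 0.0229, 0 and 0.0193 FPKM in cNK and at 1.87, 1.20 and 1.20 FPKM in DN NK. Both are known B cell genes, Cd22 being among the 12 markers, and the summed B cell marker level given above moved with them; its part was not tested.

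Members below the filter numbered 29, of which 23 had a mean under 0.3 FPKM in both groups. The other 6 were Fut7, B3galt6, Gcnt7, B3gnt8, B3gnt9 and B4galt6. B4galt6, the second lactosylceramide synthase, was at 0.313, 0.290 and 0.178 FPKM in cNK and at 1.17, 1.004 and 0.935 FPKM in DN NK, so it missed the filter by 1 library. With all rows kept in the fit it rose by 1.98 on the log2 scale (SE 0.21), at an adjusted p = 1.23e-05. B3gnt8 was at 0.359 ± 0.148 and 0.740 ± 0.107 FPKM (log2 fold change 1.03, adjusted p = 0.0424 without a filter). B3gnt9 and Gcnt7 gave -0.68 and 0.45 and did not pass in that fit. St8sia1, St8sia2, Galnt13, Galnt14 and Gcnt4 were at 0 in all 3 cNK libraries, with 1.07 to 7.22 read pairs over the 3 DN NK libraries. Mgat5b, Gcnt3 and Fut10 were at 0 in all 3 DN NK libraries, with 1.07 to 7.22 read pairs over cNK. No fold is given for these, as a difference was not detectable at this depth.

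Summed over all members of a class, sialic acid enzymes differed most between the groups. Their sum was 90.03, 94.4 and 94.7 FPKM in cNK and 61.9, 64.1 and 65.8 FPKM in DN NK, 0.687 times the cNK mean. O-glycan enzymes summed to 158 ± 2.54 and 141 ± 5.59 FPKM, 0.891 times, and chain extension enzymes to 190.4 ± 3.90 and 174 ± 1.68 FPKM, 0.912 times. N-glycan enzymes stood at 52.6 ± 1.08 FPKM in cNK and 60.3 ± 0.704 FPKM in DN NK, 1.15 times. The FPKM of all rows together was 0.938 times as high in DN NK, so a ratio near that value marks no shift against the total. Fucose enzymes other than Fut8 summed to 5.98 ± 0.581 and 4.74 ± 0.147 FPKM, 0.793 times. In each of the 5 class sums cNK and DN NK libraries stayed apart. A sum follows its most abundant members, and the counts of rising and falling sialic acid enzymes (4 and 3) show that the lower sum was not shared by all of them.

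**Figure D5:**
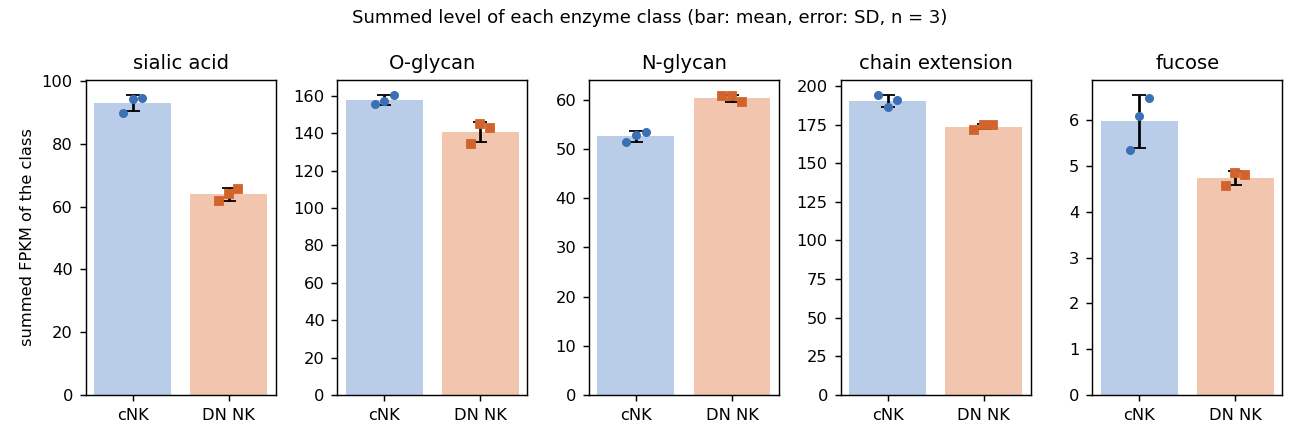
Summed FPKM of each class in every library (points), with the mean (bar) and SD (error bar) of 3 libraries per group, each panel with its own axis from 0. The sialic acid panel shows the widest gap between cNK and DN NK, and the N-glycan panel is the only one of the 5 in which DN NK is higher.

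Markers of other cell types gave the setting of these levels, beside 30.8% of all rows tested higher in DN NK and 30.9% lower. Besides B cells, DN NK was higher for 3 of 3 tested plasma cell markers, 4 of 4 ILC2 and ILC3 markers and 5 of 6 T cell markers, of which 2, 3 and 1 were tested only through 1 group. Their summed levels in DN NK were 52.3 to 61.9, 23.7 to 26.7 and 238 to 250.4 FPKM, against 22.6 to 24.1, 14.7 to 16.8 and 146 to 152 FPKM in cNK. Monocyte and macrophage markers lay between 6.54 and 8.16 FPKM in all libraries. The 5 neutrophil markers matched were at 0 in all cNK libraries and summed to at most 0.636 FPKM in DN NK. Erythroid markers summed to 33.1 to 40.7 FPKM in cNK and 42.5 to 60.8 FPKM in DN NK, with 3 of 4 tested higher. Stroma and endothelium markers summed to 10.9 to 12.0 and 14.8 to 15.7 FPKM, with 1 of 1 tested higher. Dendritic cell markers had the lower sum in DN NK, 151 to 161 FPKM against 200.1 to 213 FPKM in cNK, with 2 higher and 1 lower of 3 tested. Platelet markers lay between 0.473 and 1.86 FPKM and basophil and mast cell markers between 0.290 and 0.415 FPKM in all libraries. The part of these cell types in the results above was not tested.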

How the data were processed

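The deposited table was made by the authors from 6 libraries. Poly(A) RNA was taken from 5 µg of total RNA and read as pairs of 150 bases, per the labels' protocols. The kit named there, TruSeq RNA v2, does not mark strand. HISAT, StringTie, edgeR and GRCm38 (mm10) are named in the submitters' processing notes, without versions. FPKM values and counts per gene are given per the file headers. The deposited counts are whole but are treated as estimated counts, because in rows with 1 transcript 87.8 to 89.2% of values up to 30 can be rebuilt from FPKM and length by rounding up. A read pair is worth about 3.74 of them. Rows reaching 1 FPKM in 3 of 6 libraries were tested with edgeR 4.0.16 (group as the only term, Benjamini-Hochberg adjustment, TMM, robust quasi-likelihood, 2-sided, R 4.3.3). The biological coefficient of variation was 13.5%. Alternatives used limma 3.58.1, DESeq2 1.42.0, other scalings and filters, and each library left out. On simulated data with 11690 rows, few of them changed, 64 of 67 rows changed 2-fold and 38 of 67 changed 1.5-fold were found.

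Upstream sequences are those of members past 2-fold with 1 RefSeq start, without Galnt3 and B3gnt5. The Galnt3 window overlaps an exon, running 201 bases into the deposited gene, and the call of B3gnt5 was lost in several alternatives. The printed St3gal5 window also runs 16 bases into its deposited gene. P-values reflect the spread among these 6 libraries only.

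Members, classes and gene lists were chosen with earlier results of these data known. Classes followed symbols: St3gal, St6gal and St8sia (sialic acid); Galnt, Gcnt1, Gcnt3, Gcnt4, Gcnt7, B3gnt3 and B3gnt6 (O-glycan); Mgat and Fut8 (N-glycan); other B3gnt, B4galt, B3galt and Gcnt2 (chain extension); other Fut (fucose). The antisense RNA Galnt6os, although its symbol starts with Galnt, was put in no class. Named in full were members changed at least 2-fold past the threshold and the most abundant of each class; other tested members, members above 0.3 FPKM in a group, and up to 3 genes of each list could be named. A few list genes under this rule are left out of the text. All 66 members were found in GENCODE M21, 61 with the same span, and 30 share exonic bases with another gene. Read pair numbers cover counting error only.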

Additional observations from a re-analysis of the deposited data

How the results depend on the processing

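Over 16 alternatives, 517 of 576 results of tested members kept direction and side of the threshold, 15 were no longer past it, 33 newly passed and 11 changed sign. No call or sign changed in any alternative for 23 of 37 members. For the 9 members with a 2-fold change, 130 of 137 results were the same, and the exceptions were all B3gnt5. The sign changed, always without a call, for B3gntl1: -0.057 with upper quartile factors, -0.036 without a filter, -0.028 with edgeR's default filter, -0.028 and -0.034 with limma on log2(FPKM + 1) and log2(FPKM + 0.1), and -0.048 to 0.060 with each library left out (-0.0089 without cNK replicate 3, -0.048 without DN NK replicate 3). It also changed for Mgat1 (-0.0044 with upper quartile factors; -0.11 to 0.17 with each library left out, lowest without DN NK replicate 1), Galnt12 (-0.013 to 0.17, lowest without DN NK replicate 2) and Galnt6os (-0.31 to 0.054, highest without cNK replicate 1).

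With a mean of at least 5 FPKM fewer genes are tested: 2278 rows were higher and 2336 lower, 5 members were higher, 1 of them a sialic acid and 2 chain extension enzymes, and the lists gave 0 higher for the O-glycan core, 1 higher for carriers and lectins and 3 lower for nucleotide sugars. With upper quartile factors, which put the median log2 fold change of all rows at -0.10 against -0.02, 17 members were lower, 8 of them O-glycan enzymes and 1 a fucosyltransferase, and 4 glycolipid genes were lower. With no filter, or edgeR's default one, 7 O-glycan enzymes were lower, 1 fucosyltransferase was higher and 2 were lower, and 2 sialic acid supply genes were higher. With DESeq2 and with limma on log2(FPKM + 1) or log2(FPKM + 0.1), 1 O-glycan enzyme was higher (Gcnt1), and with both limma fits 1 fucosyltransferase was lower (Fut11). Apart from the smaller set tested, the cause was not tested.

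Leaving out each library in turn gave 10 to 12 members higher and 9 to 11 lower, 3287 to 3561 rows higher and 3259 to 3483 lower, 0 to 1 O-glycan enzymes higher, 0 to 1 fucosyltransferases lower and 1 to 2 O-glycan core genes higher. Gcnt1 was called without cNK replicate 2, and Fut11 without cNK replicate 1. Same-numbered libraries were matched by number only, and the correlations of their deviations were 0.023, 0.014 and 0.16. While cNK replicates 1 and 2 correlated better with another number than with their own, cNK replicate 3 correlated best with its own. Whether same-numbered libraries were prepared together was not tested. With the replicate block 10 members were higher and 10 lower, with 3585 and 3637 of all rows; the calls of B3gnt5 and Galnt10 were lost and Galnt4 passed. Simulated 2-fold changes were found in 64 of 67 rows and 1.5-fold changes in 38 of 67. The simulation changed few of its 11690 rows, with a common dispersion for all rows, whereas 61.7% of rows passed in the data. Its rates are therefore not the sensitivity of the fit to the data, where Galnt2 passed at 1.21-fold. A member that did not pass is still not shown to be unchanged.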
